A study of Homo sapiens with 12 samples.

Results

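NLRP2 and its relatives of the oocyte and early embryo were 9 genes of the 18646 that had a gene symbol on the arrays: NLRP2, NLRP2B, NLRP7, NLRP4, NLRP5, NLRP9, NLRP11, NLRP13 and NLRP14. They were taken by the current symbol of the probe's gene, and each had 1 probe. The group was selected on the knockdown ratios themselves at 3 h and 0 h, in which NLRP2 stood near the top of all genes, so those ratios are described below, and counts of calls on them are given only beside those of all features, with nothing drawn from them. In the study, a short hairpin RNA against ZRF1 (shZRF1; gene symbol DNAJC2) was expressed in NTERA2 (NT2/D1), an embryonal carcinoma line of human origin, and the control was the same line with a random hairpin (shRandom). Both kinds of cells were compared after 3 h of retinoic acid at 0.01 µM, which starts their differentiation, and untreated (0 h). Replicates came from different days, 3 at each time, and were each hybridised on a forward array (knockdown in Cy5) and again with swapped dyes, so 6 replicates gave 12 Agilent arrays. Every array held knockdown and control RNA of the same time, so a gene's own response to retinoic acid cannot be read from them. The labels give no second hairpin, and they number the knockdown line differently in each replicate's cell line field while the titles use 1 name, so whether separate knockdown lines were used cannot be told.

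NLRP proteins share an N-terminal pyrin domain, a nucleotide-binding NACHT domain and leucine-rich repeats. Some, such as NLRP3, assemble inflammasomes, which activate caspase-1, whereas another branch of the family in mammals is expressed mainly in germ cells and the early embryo. NLRP5 belongs there to the subcortical maternal complex of the oocyte, and maternal variants of NLRP7 and NLRP2 are known from molar pregnancies and disturbed genomic imprinting. NLRP2 and NLRP7 lie next to each other on chromosome 19, and NLRP7 has no counterpart in rodents. NLRP2B, on chromosome X, is a retrocopy of NLRP2 that encodes little more than a pyrin domain.

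Values are log2 ratios of shZRF1 over shRandom cells, with the sign of the swapped arrays turned, so that a positive value is higher in the knockdown. DNAJC2, the targeted gene, averaged -0.96 at 3 h and -0.70 at 0 h (moderated SE 0.21 each, n = 3 replicates each) and was below 0 on 12 of 12 arrays, from -2.73 to -0.39. By the limma fit described below (adjusted p under 0.05), DNAJC2 passed as lower at 3 h but did not pass at 0 h. Its 3 h mean rested on the forward array of replicate 1, at -2.73. It was -0.63 without that replicate, and over the arrays that were not wide (defined below) DNAJC2 averaged -0.51 at 3 h and -0.56 at 0 h. The deposited ratios were centred and scaled, and intensities were not analysed here. Neither the level of a gene nor the presence of cell type markers could therefore be checked, and in these bulk samples fewer cells of a type and less RNA per cell cannot be told apart. On 3 arrays the most extreme ratios over all probes reached further than on the rest, which mattered for NLRP2. The interquartile range was about 0.15 on these 3 and on the others. These wide arrays were the forward array of 3 h replicate 1, the swapped array of 3 h replicate 3 and the swapped array of 0 h replicate 2, with 1st to 99th percentile ranges of 3.04, 1.10 and 1.70 on the log2 scale, or 3.45, 1.25 and 1.92 times that of the median array.

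The stretches before the transcription starts are shown for NLRP2 and NLRP7, neighbours that were both higher in the knockdown, and for NLRP4, a member of the same family and chromosome whose ratio stayed near 0. RefSeq windows on GRCh38.p14 were found for 7 of the 9 members, 9 windows in all, and none was at hand for NLRP2B and NLRP13. Each sequence gives the 250 bases before an annotated start, 5′ to 3′ on the gene's own strand, at chr19:54965034-54965283 (plus strand), chr19:54947531-54947780 (minus strand) and chr19:55836290-55836539 (plus strand). Capitals mark the CCAAT box on either strand.
NLRP2: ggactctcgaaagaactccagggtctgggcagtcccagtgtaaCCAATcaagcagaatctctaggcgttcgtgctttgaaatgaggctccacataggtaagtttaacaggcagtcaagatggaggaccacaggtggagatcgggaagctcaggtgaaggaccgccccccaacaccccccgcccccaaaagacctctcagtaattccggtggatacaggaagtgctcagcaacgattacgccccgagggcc
NLRP7: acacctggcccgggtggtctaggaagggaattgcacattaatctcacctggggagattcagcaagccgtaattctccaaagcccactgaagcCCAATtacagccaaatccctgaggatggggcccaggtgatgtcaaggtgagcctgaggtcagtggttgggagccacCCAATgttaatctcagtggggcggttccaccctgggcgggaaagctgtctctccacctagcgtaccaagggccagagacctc
NLRP4: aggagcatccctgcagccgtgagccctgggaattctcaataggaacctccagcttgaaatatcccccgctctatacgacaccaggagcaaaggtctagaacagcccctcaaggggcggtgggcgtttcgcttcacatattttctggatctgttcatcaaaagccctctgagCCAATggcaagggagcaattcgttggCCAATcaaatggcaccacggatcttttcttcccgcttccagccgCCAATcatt

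The letters CCAAT, searched on both strands, occurred once before NLRP2, at 2 places before NLRP7 and at 3 before NLRP4. They were in 7 of the 9 member windows and in 32.0% of the 35116 windows of all genes. Whether these letters have a part in the ratios was not tested. The GC box letters GGGCGG were in 5 of the 9 member windows and in 42.6% of all windows, with 2 matches before NLRP2, 2 before NLRP7 and 1 before NLRP4. AGGTCA, a core letter run bound by nuclear receptors, including those for retinoic acid, matched in 2 of the 9, NLRP7 and one of the NLRP11 windows, against 12.1% of all windows. TATAAA matched in 1 of the 9, the other NLRP11 window, against 10.7%, and the octamer ATGCAAAT in 0 of the 9, against 1.63%. RefSeq annotates 2 starts of NLRP2, 1090 bases apart. Their windows, of 300 bases with the 50 after the start, differed at 3 positions only, G142C, A273G and A284T, counted from 1 at the 5′ end and written as the base of the upstream window, the position and the base of the downstream one. The NLRP4 start and one of the NLRP11 starts lie on opposite strands, and their windows of 300 bases share 64 bases. A match in letters is a description and shows no binding.

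NLRP2 had the highest ratio of all 18646 named genes at 3 h and the sixth highest at 0 h. In the 3 h replicates its forward and swapped arrays read 2.96 and 1.09 (replicate 1), 0.64 and 0.98 (replicate 2), and 0.80 and 1.54 (replicate 3). In the 0 h replicates they read 0.68 and 1.14 (replicate 1), 0.77 and 2.29 (replicate 2), and 0.77 and 1.04 (replicate 3). The probe was thus above 0 on 12 of 12 arrays, the values of the 3 h and 0 h arrays overlapped, and the highest values were those of the 3 wide arrays. Averaged per replicate, NLRP2 stood at 2.03, 0.81 and 1.17 at 3 h, against 0.91, 1.53 and 0.90 at 0 h. The means were 1.33 ± 0.62 at 3 h, a 2.52-fold ratio, and 1.11 ± 0.36 at 0 h, a 2.16-fold ratio (SD, n = 3 each). Over both times NLRP2 averaged 1.22 (moderated SE 0.16, n = 6), or 2.34-fold.

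**Figure D1:**
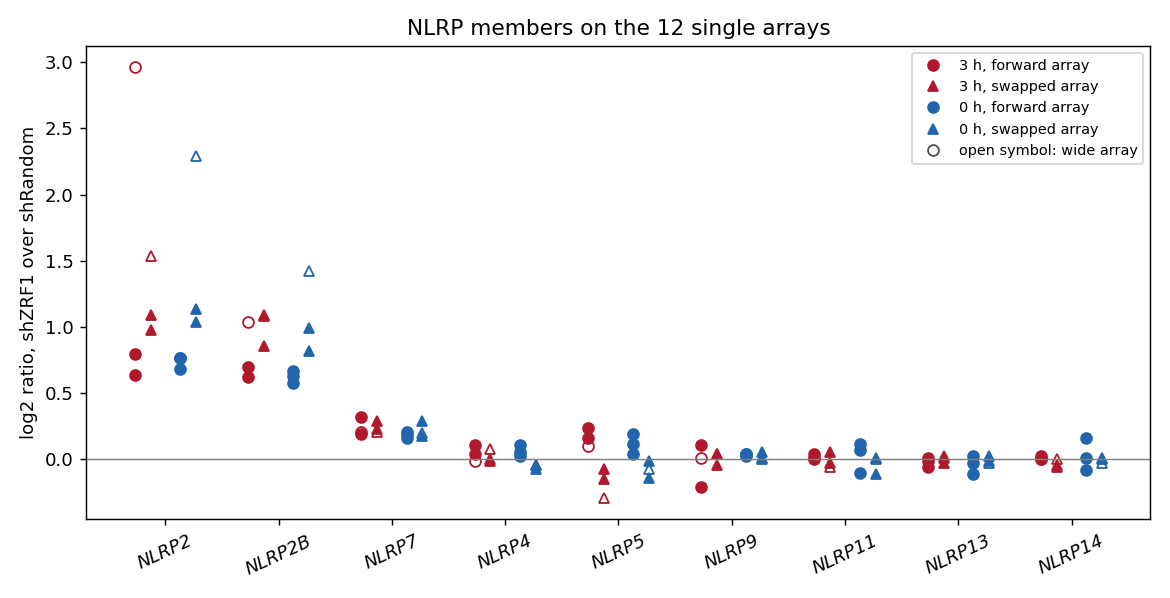
Log2 ratio of shZRF1 over shRandom on the vertical axis for each of the 9 NLRP genes, with 1 point per array: red for 3 h, blue for 0 h, circles for forward and triangles for swapped arrays, open symbols for the 3 wide arrays. NLRP2, NLRP2B and NLRP7 lie above 0 on all 12 arrays, whereas the 6 others lie between -0.29 and 0.24.

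The size of the NLRP2 ratio moved with the width of the array. It averaged 2.26 on the 3 wide arrays and 0.88 on the 9 others, where it ran from 0.64 to 1.14. In a limma fit of the single arrays without the wide ones, with a coefficient for the dye, NLRP2 stood at 0.88 at 3 h and 0.91 at 0 h. The NLRP2 median over those 9 arrays was the third highest of the named genes. Within the 9 it also differed by dye: the 5 forward arrays read 0.64 to 0.80 and the 4 swapped arrays 0.98 to 1.14, with no overlap. The time means hold 3 forward and 3 swapped arrays each and so weight both dye orientations equally, and the dye term is tested further on. Over all probes the forward and turned swapped array of a replicate correlated only at -0.19 to 0.11. Arrays of the same orientation correlated at 0.38 to 0.68. The part of array width in the size of the ratio was not tested.

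NLRP2B, whose product resembles the isolated pyrin domain of NLRP2, was also higher in the knockdown, with a smaller and tighter mean ratio than NLRP2. At 3 h its forward and swapped arrays read 1.04 and 1.08, 0.70 and 0.86, and 0.62 and 1.09 in replicates 1 to 3. At 0 h they read 0.58 and 0.82, 0.67 and 1.42, and 0.63 and 0.99. All 12 arrays were above 0 and the times overlapped. The means were 0.90 ± 0.14 at 3 h, or 1.86-fold, and 0.85 ± 0.18 at 0 h, or 1.81-fold (SD, n = 3 each), which gave NLRP2B rank 4 at 3 h and rank 9 at 0 h among named genes.

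NLRP2B lay below NLRP2 on 11 of the 12 arrays. Its value minus that of NLRP2 was -1.92 on the widest array, between -0.86 and -0.45 on the other wide ones, and between -0.32 and 0.05 on the 9 remaining arrays. Where NLRP2 reached 2.96, on the forward array of 3 h replicate 1, NLRP2B reached 1.04, less than the 1.42 it had on the swapped array of 0 h replicate 2, also a wide one. Because NLRP2B derives from the NLRP2 transcript, a probe for either could bind RNA of both. Probe sequences were not used here, and how much of the NLRP2B ratio comes from NLRP2 RNA was not tested.

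NLRP7, the chromosome 19 neighbour of NLRP2, had a small and steady ratio. Its forward and swapped arrays read 0.21 and 0.29, 0.32 and 0.23, and 0.19 and 0.21 in the 3 h replicates, and 0.19 and 0.18, 0.21 and 0.20, and 0.16 and 0.29 in the 0 h replicates. All 12 arrays lay above 0, within a span narrower than the gap to any NLRP2 value. The means were 0.24 ± 0.04 at 3 h, a 1.18-fold ratio, and 0.21 ± 0.02 at 0 h, a 1.15-fold ratio (SD, n = 3 each). Unlike NLRP2, NLRP7 averaged about the same on the wide arrays (0.21) as on the others (0.23). The SD over the 12 arrays was 0.05 for NLRP7, against 0.71 for NLRP2 and a median of 0.10 over all features.

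**Figure D2:**
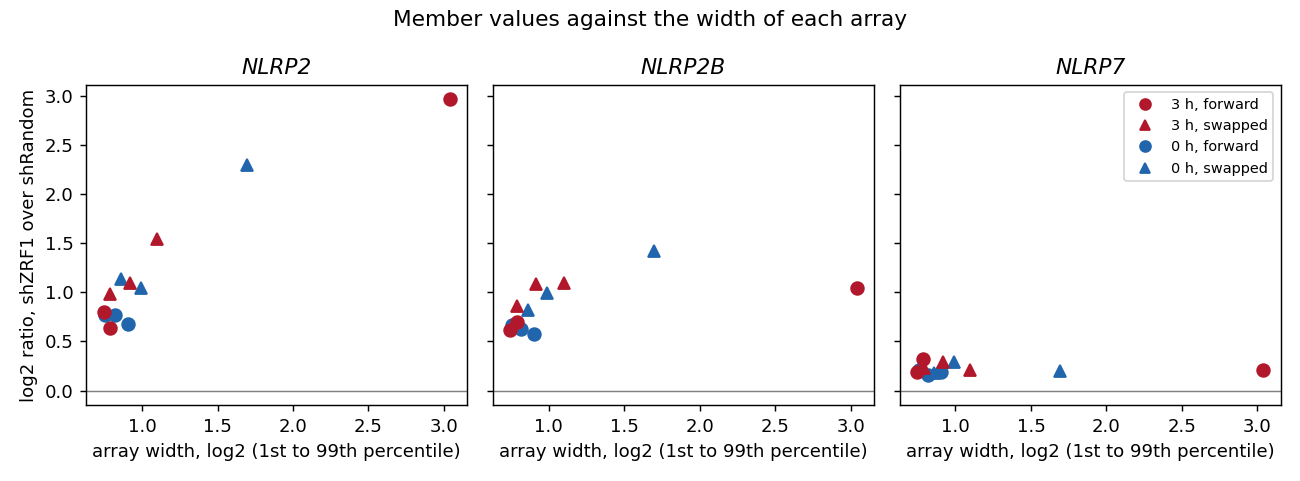
Log2 ratio of shZRF1 over shRandom (vertical axis) against the array's width, the 1st to 99th percentile range of its log2 ratios (horizontal axis), for NLRP2, NLRP2B and NLRP7, with 1 point per array (red 3 h, blue 0 h; circles forward, triangles swapped). NLRP2 reads 2.96 at width 3.04 and 2.29 at width 1.70, NLRP2B reads 1.04 and 1.42 there, and NLRP7 stays between 0.16 and 0.32 at every width.

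The 6 remaining members stayed near 0. Their time means ran from -0.02 to 0.03 and their single arrays from -0.29 to 0.24, and 57 of the 72 array values were within 0.1 of 0. NLRP4, which dampens antiviral signalling through TBK1, averaged 0.03 ± 0.04 at 3 h and 0.01 ± 0.01 at 0 h (SD, n = 3 each). NLRP11, its neighbour on the opposite strand and a regulator of TRAF6, averaged 0.005 ± 0.020 at 3 h and 0.0001 ± 0.039 at 0 h. NLRP13, a chromosome 19 relative, averaged -0.01 ± 0.03 at 3 h and -0.02 ± 0.03 at 0 h.

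NLRP9, which forms an antiviral inflammasome in the mouse intestine, averaged -0.01 ± 0.07 at 3 h and 0.03 ± 0.01 at 0 h (SD, n = 3 each), and 1 array, the forward array of 3 h replicate 3, stood apart at -0.21. NLRP14, a germ cell gene on chromosome 11, averaged -0.01 ± 0.02 at 3 h and 0.01 ± 0.07 at 0 h. NLRP5, the subcortical maternal complex member, averaged -0.001 ± 0.020 at 3 h and 0.02 ± 0.03 at 0 h, but the arrays behind these means read in opposite directions. All 6 forward arrays of NLRP5 were above 0, from 0.04 to 0.24, and all 6 swapped arrays were below 0, from -0.29 to -0.01.

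That pattern was tested with the dye term, the forward minus the swapped value of each replicate divided by 2, a contrast that the choice of the members did not use. It was 0.13 ± 0.03 for NLRP5 (moderated SE, n = 6 replicates, forward higher in 6 of 6; limma adjusted p = 0.0128). For NLRP2B it was -0.17 ± 0.04, with means of 0.71 on forward and 1.04 on swapped arrays (forward lower in 6 of 6 replicates; limma adjusted p = 0.0254). For NLRP2 it was -0.12 ± 0.19 (limma adjusted p = 0.678), and the wide forward array of 3 h replicate 1 was the exception to forward arrays that read lower in 5 of 6 replicates. For the other 6 members it ran from -0.01 to 0.04 and did not pass. So 2 of 9 members passed, against 27.8% of all features. The count was 1 without 3 h replicate 3, without 0 h replicate 1, without 0 h replicate 3 or after quantile normalization.

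**Figure D3:**
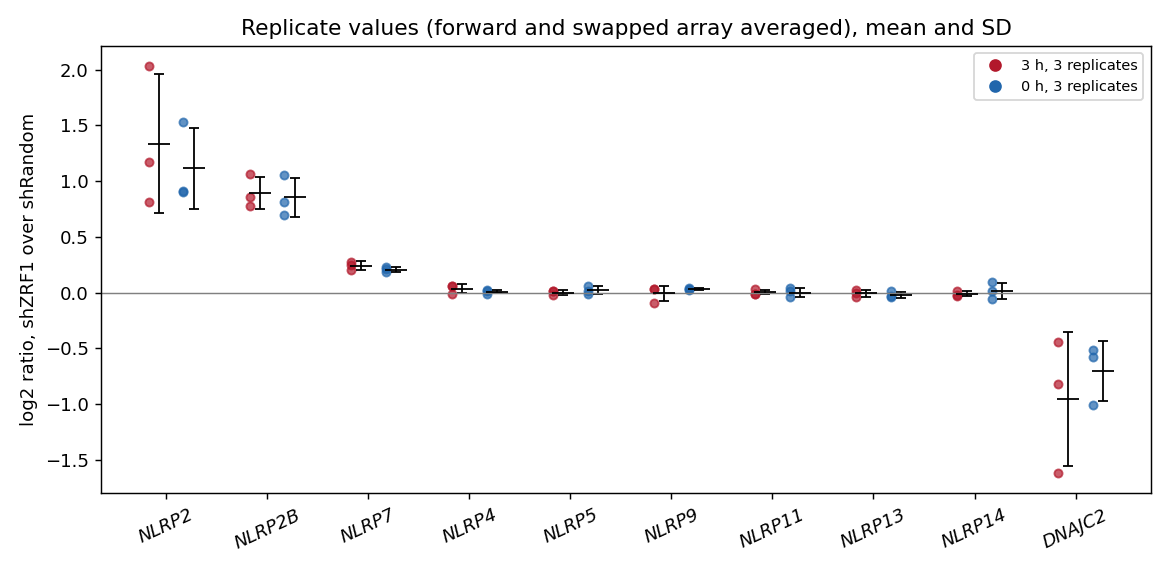
Replicate log2 ratios of shZRF1 over shRandom (each the mean of a forward and a swapped array) for the 9 NLRP genes and DNAJC2, red for 3 h and blue for 0 h, with black bars for the mean and the SD of 3 replicates. NLRP2 has the widest SD of the family, 0.62 at 3 h and 0.36 at 0 h, NLRP7 sits at 0.24 and 0.21, and DNAJC2 lies below 0 in every replicate.

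By the limma fit over all 30305 features (Benjamini-Hochberg adjusted p under 0.05), 3 of 9 members passed as higher at 3 h, NLRP2, NLRP2B and NLRP7, beside 4.47% of all features. At 0 h 2 of 9 passed as higher, NLRP2B and NLRP7, beside 1.67% of all features. No member passed as lower, beside 3.65% of features at 3 h and 2.14% at 0 h. Of the members, 3 of 9 lay above 0 on all arrays, beside 3.53% of all features, and the median member stood at 0.005 at 3 h and 0.022 at 0 h, beside 0.002 and 0.0002 for all features. Since these ratios chose the group, nothing is read from the counts. The 3 h count was 0 without 3 h replicate 2 or with each time fitted alone, and the 0 h count was 0 without any 1 of the 3 0 h replicates and 3 on the swapped arrays alone or without the wide arrays.

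Whether the knockdown ratio differed between retinoic acid and no treatment was tested as 3 h minus 0 h. NLRP2 differed by 0.22 ± 0.33 (moderated SE; 95% interval -0.56 to 1.00; limma adjusted p = 0.839), an interval that spans 0 and reaches values near the NLRP2 ratio itself. NLRP2B differed by 0.04 (95% interval -0.21 to 0.30) and NLRP7 by 0.04 (95% interval -0.04 to 0.12). For the 6 others the differences ran from -0.04 to 0.03. Over the 9 members the limma adjusted p ran from 0.753 to 0.972, and 0 passed, as did 0 of all features (0%). At an unadjusted p under 0.05, 0 members passed, against 1739 features, or 5.74% of all. The NLRP2 difference turned to -0.13 without 3 h replicate 1, to -0.034 without the wide arrays (the fit with a dye coefficient) and to -0.29 on swapped arrays alone.

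**Figure D4:**
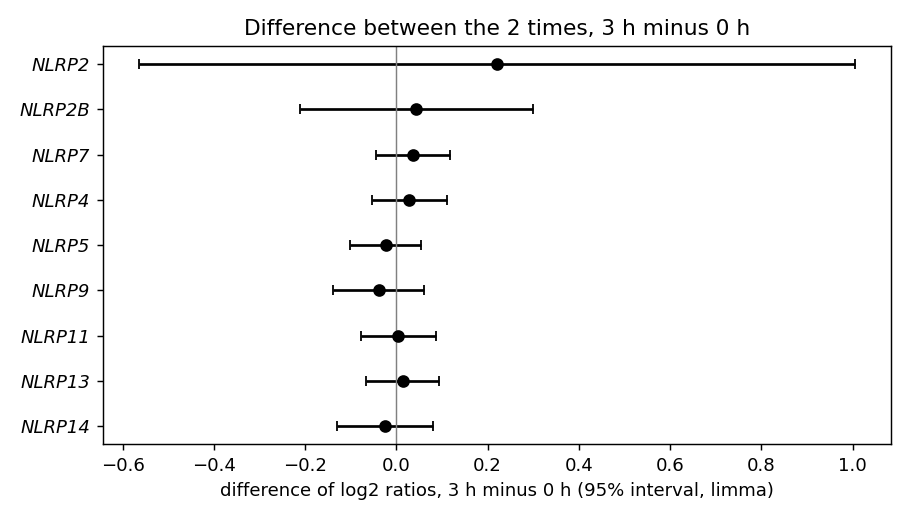
Difference of the log2 ratios, 3 h minus 0 h, for the 9 NLRP genes (horizontal axis) with 95% intervals from limma. Every interval spans 0, and that of NLRP2, from -0.56 to 1.00, is the widest.

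The genes whose values followed NLRP2 most closely over the 12 arrays, by Pearson's r, were GDF3 (0.99), MMP9 (0.98), CTDSPL (0.98), MYH9 (0.98) and TNS3 (0.97), given as a description because the arrays share dye orientation and width. GDF3 is a TGF-beta family ligand of pluripotent cells, MMP9 a matrix metalloproteinase, MYH9 a non-muscle myosin heavy chain, CTDSPL a phosphatase and TNS3 a focal adhesion protein. Their ratios were smaller than that of NLRP2, from 0.21 for TNS3 to 0.78 for MYH9 at 3 h, and from 0.16 to 0.72 at 0 h. Over the 9 arrays that were not wide, a choice added after seeing the data, r was 0.90 for GDF3, 0.85 for MMP9, 0.70 for CTDSPL, 0.81 for MYH9 and 0.82 for TNS3, and 0 of the 5 remained among the 5 highest. Such values were common there: 1381 genes had an r over 0.9 on those 9 arrays, against 92 on all 12. GDF3 ranked 1463 and NLRP2B 2395 on the 9 arrays. The 5 highest genes there averaged only -0.05 to -0.01 on the same arrays. Among the members, NLRP2B had an r of 0.73 with NLRP2 over 12 arrays and 0.83 over those 9, and NLRP7 had -0.13 and 0.07.

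Genes of related function, cell type markers and neighbours on the chromosome were then set beside the members in 11 lists with 147 measured genes. At 3 h 13 of the 147 passed as higher (8.84%, beside 4.47% of all features) and 6 as lower (4.08%, beside 3.65%). The 41 neighbours held 1 of these higher and 5 of these lower calls. At 0 h 4 of the 147 passed as higher and 4 as lower (2.72% each, beside 1.67% and 2.14% of all features), of which the neighbours held 0 and 3. These calls fell to 0 at 3 h without 3 h replicate 2 or with each time fitted alone, to between 2 and 9 without either other 3 h replicate or any 0 h replicate, and to 0 at 0 h without any 1 of the 0 h replicates. At 0 h there were 2 without 3 h replicate 2, 4 without 3 h replicate 3 and 17 without 3 h replicate 1, and without the wide arrays the counts were 30 at 3 h and 26 at 0 h. The gene lists were chosen with earlier results of these data known, so their counts and adjusted p values are given as a description. Adjusted p values below are those of the limma fit. At an unadjusted p under 0.05 it gave 26.3% of all features at 3 h (13.7% higher, 12.6% lower) and 18.9% at 0 h (8.98% higher, 9.88% lower), beside which the unadjusted counts below stand.

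Other receptors of the family moved little. Of 5 further NLRP genes measured, 1 passed, NLRP3, the best known inflammasome sensor, at 0.17 ± 0.03 at 3 h (moderated SE; adjusted p = 0.0371), with 0.09 at 0 h, and the list's median was 0.01 at 3 h and 0.03 at 0 h. Of 7 other NOD-like receptors 1 passed, NOD1, a sensor of bacterial peptidoglycan, at 0.12 at 3 h and 0.13 at 0 h (adjusted p 0.0344 and 0.0396). NOD1 was above 0 on 12 of 12 arrays, as NLRP7 was.

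Of 21 inflammasome genes 2 passed as higher at 3 h and 1 at 0 h, with list medians of 0.01 at both times. At an unadjusted p under 0.05, 5 were higher at 3 h (23.8%, beside 13.7% of all features) and 3 at 0 h (14.3%, beside 8.98%), and 0 were lower. IFI16, a nuclear DNA sensor with a pyrin domain, stood at 0.55, 0.37 and 0.36 in the 3 h replicates and at 0.23, 0.39 and 0.37 in the 0 h replicates, all above 0 and overlapping. Its means were 0.43 ± 0.05 and 0.33 ± 0.05 (moderated SE; adjusted p 0.0131 at 3 h and 0.0253 at 0 h). TXNIP, a thioredoxin inhibitor that can bind NLRP3, averaged 0.37 at 3 h (adjusted p = 0.0397) and 0.09 at 0 h, and its 3 h arrays ran from 0.10 to 1.12, the highest being the wide forward array of replicate 1.

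Of 14 NF-kappaB genes 3 passed as higher at 3 h and 1 at 0 h, and the list's median was 0.05 at 3 h and 0.02 at 0 h. At an unadjusted p under 0.05, 6 were higher and 2 lower at 3 h (57.1% together, beside 26.3% of all features). At 0 h 2 were higher and 1 lower (21.4% together, beside 18.9%). NFKB1, the p105 precursor, stood at 0.17 at both times (adjusted p 0.0309 at 3 h and 0.0449 at 0 h). CHUK, an IkappaB kinase subunit, stood at 0.16 at 3 h (adjusted p = 0.0238) and 0.02 at 0 h, and NFKB2, the p100 precursor, at 0.13 at 3 h (adjusted p = 0.0308) and 0.09 at 0 h. All 3 lay below the NLRP7 ratio of 0.24 at 3 h and far below those of NLRP2 and NLRP2B. By dye, CHUK read 0.36, 0.25 and 0.30 on the 3 h forward arrays and -0.04, 0.11 and 0.01 on the swapped ones. NFKB2 read 0.04, 0.04 and 0.01 on the 3 h forward arrays and 0.23, 0.14 and 0.30 on the swapped ones. RELB, named after its values were seen, stood at -0.12 at 3 h and -0.16 at 0 h and did not pass.

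**Figure D5:**
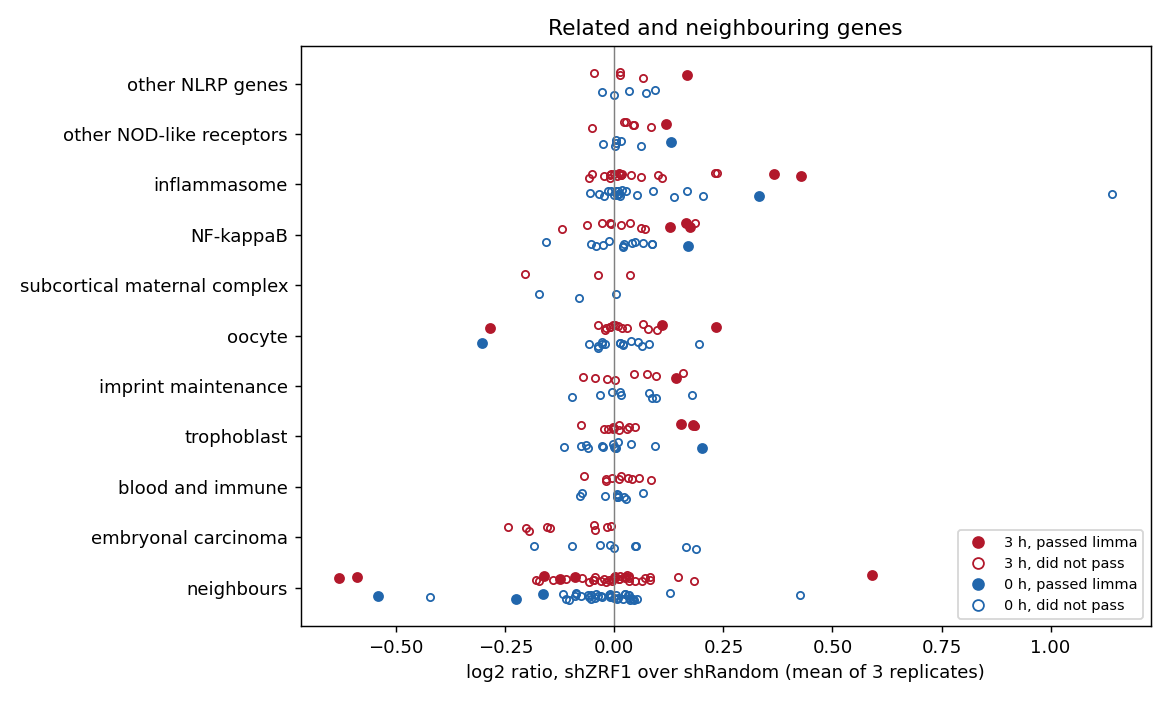
Mean log2 ratio of shZRF1 over shRandom (horizontal axis, 3 replicates) of the genes in 11 lists, red for 3 h and blue for 0 h, filled where limma's adjusted p was under 0.05; the small vertical scatter within a row only separates points. The filled points farthest from 0 are CYB5R2 at -0.63, TNNT1 at -0.59 and PPFIBP2 at 0.59, all at 3 h, and the open point at 1.14 is PSTPIP1 at 0 h, which rests on 1 array.

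The partners of NLRP5 did not pass in either direction. By limma 0 of 3 subcortical maternal complex genes measured passed (at an unadjusted p under 0.05, 1 at 3 h and 2 at 0 h, all lower). Of these, ZBED3 averaged -0.21 at 3 h and -0.17 at 0 h (adjusted p 0.0607 and 0.134), TLE6 averaged -0.04 and -0.08, and the list's median was -0.04 at 3 h and -0.08 at 0 h. Of 16 oocyte genes 2 passed as higher and 1 as lower at 3 h, and 0 and 1 at 0 h, with medians of 0.01 at each time. ZP3, a zona pellucida glycoprotein, stood at 0.23 at 3 h (adjusted p = 0.0315) and 0.19 at 0 h, and NPM2, a histone chaperone of the egg, at 0.11 at 3 h (adjusted p = 0.0343) and 0.08 at 0 h. NPM2 read 0.00, 0.04 and -0.01 on the 3 h forward arrays and 0.26, 0.18 and 0.19 on the swapped ones. DPPA3, a maternal factor that protects DNA methylation and is expressed in pluripotent cells, fell by 0.29 at 3 h and by 0.30 at 0 h (adjusted p 0.0164 and 0.0167) and was below 0 on 12 of 12 arrays, opposite to NLRP2 and NLRP7.

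Of 9 genes that maintain imprints 1 passed, ZFP57, a zinc finger protein that binds imprinted regions, at 0.14 at 3 h (adjusted p = 0.0351) and 0.09 at 0 h, and the median was 0.04 at 3 h and 0.02 at 0 h. At an unadjusted p under 0.05, 3 were higher and 0 lower at 3 h (33.3% and 0%, beside 13.7% and 12.6% of all features). At 0 h 3 were higher and 1 lower (33.3% and 11.1%, beside 8.98% and 9.88%). Markers of other cells that express NLRP genes were compared in the same way. Of 14 trophoblast genes 2 passed as higher at 3 h and 1 at 0 h, with medians of 0.01 at 3 h and -0.002 at 0 h. At an unadjusted p under 0.05, 3 were higher and 1 lower at 3 h (21.4% and 7.14%, beside 13.7% and 12.6% of all features). At 0 h 2 were higher and 1 lower (14.3% and 7.14%, beside 8.98% and 9.88%). TFAP2A stood at 0.18 at 3 h and 0.20 at 0 h (adjusted p 0.0138 and 0.0125), and GATA2, like TFAP2A a transcription factor not limited to trophoblast, at 0.15 at 3 h (adjusted p = 0.0302) and 0.09 at 0 h. GATA2 read 0.16, -0.10 and -0.06 on the 3 h forward arrays and 0.26, 0.32 and 0.33 on the swapped ones. GATA3, named after its values were seen, went the other way without passing, at -0.08 at both times and from -0.18 to -0.01 on single arrays.

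Of 10 blood and immune markers 0 passed limma's adjusted threshold (2 at 3 h and 3 at 0 h had an unadjusted p under 0.05, near the shares of all features), with values from -0.07 to 0.08 at 3 h and from -0.08 to 0.07 at 0 h. CSF1R, a macrophage growth factor receptor, stood at -0.07 at both times, and PTPRC, the leukocyte marker CD45, at 0.06 at 3 h and 0.07 at 0 h. Of 9 embryonal carcinoma markers 0 passed (1 at 3 h and 2 at 0 h had an unadjusted p under 0.05, lower in each case), with a median of -0.15 at 3 h and 0 at 0 h. Over the arrays that were not wide the median was -0.019 at 3 h and -0.022 at 0 h, so the 3 h median rested on the wide arrays. SALL4 stood at -0.15 at 3 h and -0.18 at 0 h, and DNMT3B at -0.04 and -0.10. With ratios only, no summed marker level could be given, and the part of other cell types in the NLRP ratios was not tested.

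Genes that flank NLRP2 and NLRP7 on chromosome 19 were not among those that rose. The 10 nearest measured genes of NLRP2 and NLRP7, 5 on each side, had medians of -0.06 at 3 h and -0.03 at 0 h, and by limma 0 passed as higher at either time (1 at 3 h and 0 at 0 h at an unadjusted p under 0.05), while 2 passed as lower at each (5 at 3 h and 3 at 0 h at an unadjusted p under 0.05). TNNT1, slow skeletal troponin T, stood at -0.84, -0.42 and -0.51 in the 3 h replicates and at -0.40, -0.81 and -0.41 in the 0 h replicates, below 0 throughout. Its means were -0.59 ± 0.10 at 3 h and -0.54 ± 0.10 at 0 h (moderated SE; adjusted p 0.0274 and 0.0462). RDH13, a mitochondrial retinol dehydrogenase, passed as lower at 3 h (-0.16, adjusted p = 0.0412, and -0.11 at 0 h), and EPS8L1 had -0.11 at 3 h and passed as lower at 0 h (-0.16, adjusted p = 0.0446). RDH13 read -0.40, -0.32 and -0.29 on the 3 h forward arrays and -0.01, -0.10 and 0.15 on the swapped ones. EPS8L1 read -0.21, -0.20 and -0.39 on the 0 h forward arrays and -0.10, 0.00 and -0.08 on the swapped ones. RDH13, EPS8L1, GALP and FAAH2 were named after their values were seen. Those 10 genes reached at most 0.06 at 3 h and 0.04 at 0 h, under every NLRP7 replicate.

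Around the 5 other members on chromosome 19, 1 of 11 flanking genes passed at each time, lower in both cases, GALP at 3 h (-0.09, adjusted p = 0.0485; -0.06 at 0 h) and ZNF580, which had -0.14 at 3 h, at 0 h (-0.23, adjusted p = 0.0426). ZNF580 read -0.11, -0.04 and -0.03 on the 0 h forward arrays and -0.32, -0.61 and -0.24 on the swapped ones. Around NLRP2B 1 of 10 passed, FAAH2, lower at 3 h (-0.12, adjusted p = 0.0316). NLRP14 itself averaged -0.01 at 3 h and 0.01 at 0 h. Near it CYB5R2, a cytochrome b5 reductase, stood at -0.63 ± 0.13 at 3 h (adjusted p = 0.0396) and -0.42 ± 0.13 at 0 h, and PPFIBP2, a liprin, at 0.59 ± 0.12 at 3 h (adjusted p = 0.0385) and 0.42 ± 0.12 at 0 h (moderated SE). CYB5R2 was below 0 and PPFIBP2 above 0 on 12 of 12 arrays, so neighbours within 5 measured genes of NLRP14 had opposite ratios. Over the arrays that were not wide, both times together, CYB5R2 averaged -0.35 and PPFIBP2 0.35, and TNNT1, near NLRP2, averaged -0.40.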

How the data were processed

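RNA of shZRF1 and shRandom NT2/D1 cells was measured on 12 Agilent 2-colour arrays, 6 per time. The deposited values are a score, a signed fold ratio of Cy5 over Cy3 with 2 decimals with ratios under 1 given as minus their inverse. This was inferred from the numbers, since no label names the unit. Per the submitters' processing notes limma was used, and its version, background correction and genome build are not given in the sources used here. Ratios were converted to log2, and swapped arrays were turned by the labels' dye order. Of 41000 probes, 29341 had 1 symbol, 33 several and 11626 none in the platform annotation, and 29298 were updated by Entrez number through a RefSeq table of GRCh38.p14. Probes of a gene were averaged, which left 30305 features.

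The forward and turned swapped arrays of a replicate were averaged, and limma 3.58.1 in R 4.3.3 (lmFit, eBayes) fitted both times with a shared spread. P-values were adjusted over all features by Benjamini-Hochberg with a threshold of 0.05 and measure the spread among these replicates. The fit was also run on simulated data with independent normal noise for each gene and replicate. That run held no dye effect and no wide arrays, so it cannot show how the fit handles them. Arrays whose 1st to 99th percentile range exceeded 1.2 times that of the median array were called wide. With ratios only, no filter on signal was applied, and precision is limited by how many arrays there are. The members and gene lists were chosen with earlier results of these data known.

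Named were all members and DNAJC2, the most changed genes of each list that passed, at most 4 (where none passed, the 2 of lowest p), and the 5 genes most correlated with NLRP2. The neighbours were the 5 nearest measured genes on each side. Alternatives changed dye orientation, array handling, scaling, normalization, the replicate block, the shared spread, probes, genes tested and replicates. The limma fit without the wide arrays used single arrays with a dye coefficient and the replicate as a random block. Averages over the arrays that were not wide are plain means.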

Additional observations from a re-analysis of the deposited data

How the results depend on the processing

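The NLRP2, NLRP2B and NLRP7 ratios were above 0 under each alternative at both times. These 3 genes lay above 0 on 12 of 12 arrays, so leaving out or averaging arrays could not turn the direction, and nothing is drawn from it. At 0 h NLRP2 stood at 0.74 on forward and 1.49 on swapped arrays, against 1.11 on both. Its difference 3 h minus 0 h was -0.29 on swapped arrays and -0.034 without the wide arrays, against 0.22, and ran from -0.13 to 0.48 when 1 replicate was left out, below 0 without 3 h replicate 1. Same-numbered deviations from the time means correlated at 0.02, 0.00 and -0.30 for replicates 1 to 3. These correlations cannot show whether replicates with the same number at 3 h and 0 h belonged together, and the main fit did not pair them. With the replicate block the members that passed numbered 0 at 3 h and 0 at 0 h, and so did the list genes. Members that passed at 3 h (3) were 0 with each time alone and 0 to 3 with 1 replicate left out. At 0 h (2) they were 1 on forward arrays and 0 to 3 with 1 replicate left out. The dye term (2) gave 1 after quantile normalization and 1 to 3 with 1 replicate left out. List genes that passed at 3 h (19) were 7 on forward arrays, 30 without the wide arrays, 0 with each time alone and 0 to 9 with 1 replicate left out. At 0 h (8) they were 28 on swapped arrays, 16 on single arrays with a dye coefficient, 26 without the wide arrays, 18 after rescaling to equal width, 23 after quantile normalization and 0 to 17 with 1 replicate left out. The causes were not tested, except that leaving out a replicate or fitting a time alone leaves fewer values. Without intensities, signal over background could not be judged.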

Other observations

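PSTPIP1, a pyrin-binding adaptor of the inflammasome list, read 6.87 on the swapped array of 0 h replicate 2, a wide one, and between -0.07 and 0.08 on the 11 other arrays, so its 0 h mean of 1.14 rests on 1 array.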
